A study of Rattus norvegicus with 10 samples.

Results

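Hsp90ab1 encodes HSP90-beta, the constitutively made cytosolic form of the HSP90 chaperone. The transcript was read in rat synovium, the tissue that lines the joint, by 1 of 62 linear-transcript probes on a circular RNA microarray. The probe, CUST_8_PI421900130, is annotated with the RefSeq transcript NM_001004082.3. It was selected by its name, but with earlier results of these data known. It was the only linear-transcript probe whose accession matched Hsp90ab1, and it was printed as 10 spots on each array. The circRNA probes were not matched to genes.

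HSP90 chaperones bind client proteins late in folding, among them kinases and steroid hormone receptors, and work through a cycle of ATP binding and hydrolysis that co-chaperones adjust. The beta form is made in most cells under ordinary conditions, whereas the closely related alpha form, Hsp90aa1, responds more strongly to heat and other stress. Because its transcript is abundant in many tissues, Hsp90ab1 is often used as a reference gene for scaling expression measurements.

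The tissue came from male rats aged 7 to 8 weeks, with all samples labelled day 21. A group of 5 samples came from normal rats and a group of 5 from rats with CIA, that is, collagen-induced arthritis, in which an immune response raised against collagen inflames the joints. Total RNA was digested with RNase R, an enzyme that degrades linear RNA and leaves circles, before Cy3 labelling and hybridisation of 1 array per sample. Hsp90ab1 signal is therefore what was left of a linear messenger RNA, or of circles that share the probed exon. In bulk tissue, fewer cells of a type and less RNA per cell cannot be told apart. The sample titles number the replicates without saying that each is a separate animal, so a p-value here measures the spread between samples, which may be technical.

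Normal replicate 1 and all 5 CIA arrays were scanned in run 1, and normal replicates 2 to 5 in run 2. Group and scan run thus largely coincided, and only normal replicate 1 separated them. Unless scan run is adjusted for, a difference between the groups over all arrays may therefore include a difference between scan runs. That is a possible bias and not only a loss of precision. With so few arrays per group, each comparison is imprecise as well. The 75th percentile of processed circRNA signal, used as the scale of each array, ran from 133 to 198 units on the run 2 arrays, was 315 units on normal replicate 1 and ran from 263 to 381 units on the CIA arrays. Normal replicate 1 lay inside the CIA range on 45 of the 62 linear probes. The same count was not taken for the other normal arrays. It therefore does not show that this array was closer to the CIA arrays than they were. Of 37 marker genes of synovial and other cell types, only Map2, a neuronal microtubule protein, had a named linear probe, so the labelled tissue could not be checked by markers.

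The spots of the Hsp90ab1 probe agreed closely within each array in processed signal. Processed signal is the spot brightness in scanner units after background subtraction and a further correction that the sources used here do not describe. On the normal arrays its geometric mean over the 10 spots was 2033 units on replicate 1, 7348 on replicate 2, 2581 on replicate 3, 4319 on replicate 4 and 2557 on replicate 5. On the CIA arrays it was 2539 units on replicate 1, 2115 on replicate 2, 2277 on replicate 3, 2166 on replicate 4 and 2557 on replicate 5. Normal replicates 2 and 4 were thus the brightest arrays for this transcript, and the other 3 normal arrays lay at or near the CIA values.

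All 100 spots were well above background, none was saturated and none was marked as an outlier. The median spot signal was 156 to 545 times the local background. The coefficient of variation of processed signal over the 10 spots was 3.20% to 10.8% per array. The brightest spot exceeded the dimmest by at most 1.44-fold in processed signal, on CIA replicate 5. These values are taken after the undescribed correction. On CIA replicate 4 the median signal, taken before it, ran from 1505 to 2435 units, and the processed signal from 1900 to 2555. The spread of median signal over spots was not summarised for each array. The standard error of an array's level over its spots was 0.015 to 0.049 on the log2 scale, against a standard deviation between normal arrays of 1.00. The spot error covers the reading of 1 array and not labelling, digestion or scanning, which the spread between arrays includes. The coefficient of variation over spots was 4.50% ± 1.29 over the normal arrays and 7.25% ± 2.76 over the CIA arrays (SD, n = 5 each), a difference that did not pass a two-sided exact permutation test (p = 0.071).

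**Figure D1:**
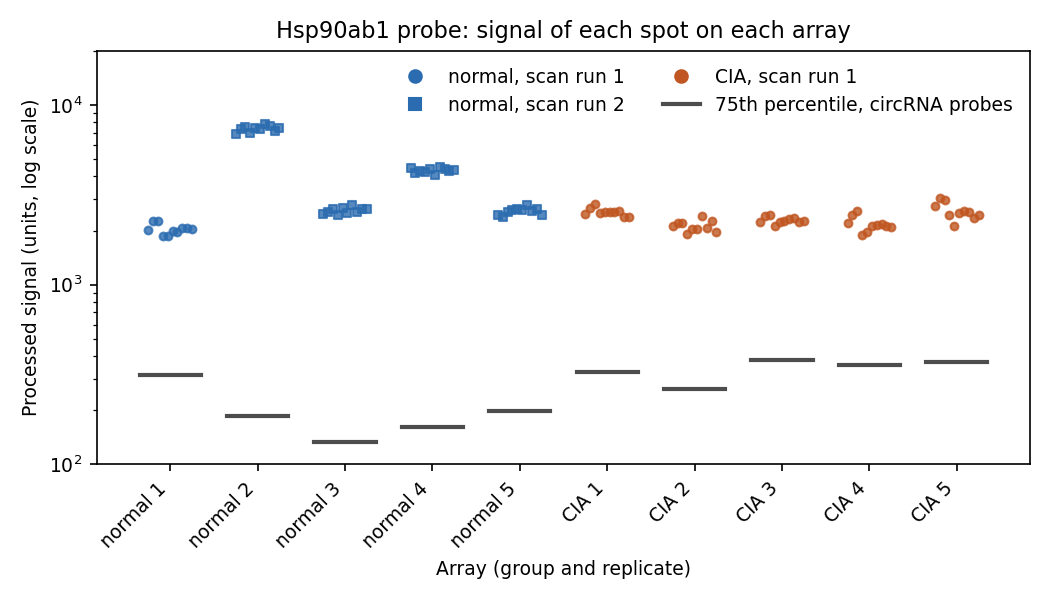
Processed signal of each of the 10 Hsp90ab1 spots (log axis, units) on each array, with a grey bar at the 75th percentile of the circRNA probes of that array. Spots of 1 array cluster tightly, normal replicates 2 and 4 are the brightest at geometric means of 7348 and 4319 units, and the grey bars are lowest on the normal arrays of scan run 2.

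Hsp90ab1 is described next as a log2 level, the mean log2 processed signal of its spots minus the log2 of the array's circRNA 75th percentile. The log2 level was 2.69, 5.30, 4.28, 4.75 and 3.69 on normal replicates 1 to 5. On CIA replicates 1 to 5 it was 2.95, 3.01, 2.58, 2.59 and 2.78. The 4 normal arrays of scan run 2 lay above every CIA array, while normal replicate 1 lay within the CIA range, so the groups overlapped. The groups did not overlap on 3 of the 62 linear probes (4.84%).

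In linear terms, the transcript read 5.98 to 8.04 times the circRNA 75th percentile on the CIA arrays. On the normal arrays it read 6.46 times that percentile on replicate 1 and 12.9 to 39.3 times on the others. The normal arrays differed among themselves by up to 6.08-fold and the CIA arrays by up to 1.34-fold.

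The first question was whether Hsp90ab1 differed between arthritic and normal synovium. Normal synovium had a mean log2 level of 4.14 ± 1.00 and CIA synovium one of 2.78 ± 0.20 (SD over 5 arrays in each case). The log2 fold change, CIA over normal, was -1.36 (SE 0.44, 95% interval -2.32 to -0.40), or 2.56-fold lower in CIA with an interval of 1.32-fold to 4.98-fold. In limma the adjusted p was 0.076 over the 62 linear probes, so the transcript did not pass the threshold of 0.05. Only 2 of those probes (3.23%) passed, 1 higher in CIA and 1 lower, the latter Actb, the beta-actin gene. The split of passing probes moved with the scale, to 17 higher and 1 lower without scaling and to 1 higher and 13 lower after normexp, a model-based background correction. The unadjusted limma p of Hsp90ab1 was 0.0094, and 19 probes (30.6%) had an unadjusted p under 0.05, 12 of them (19.4%) lower in CIA.

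Hsp90ab1 taken alone gave a two-sided exact permutation p of 0.032 over the 252 divisions of the arrays into 5 and 5, the smallest possible being 0.0079. It missed the threshold once adjusted by Benjamini-Hochberg for 8 measures of the probe and its array (adjusted p = 0.095), and the unadjusted exact permutation p was 0.056 without CIA replicate 3 or without CIA replicate 4. In 1 limma fit of 13953 circRNA and linear probes together, the adjusted p of Hsp90ab1 was 0.096. No probe of that fit passed (0%), while 32.4% had an unadjusted p under 0.05. Of the 13891 circRNA probes in it, 5.07% had a log2 fold change as low as or lower than that of Hsp90ab1. Among the linear probes 6 had a lower one.

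The spread of Hsp90ab1 within each group is given next. The standard deviation of the Hsp90ab1 level was 5.08 times as large in the normal as in the CIA group, and 1 of the other 61 linear probes had a higher ratio. The median ratio of the 62 probes was 0.98. Within scan run 2 the 4 normal arrays had a standard deviation of 0.68 around a mean of 4.50. That was larger than the standard deviation of the CIA arrays. Those were all of run 1, so group and scan run cannot be told apart in this contrast. The difference in spread was not tested.

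The level was then compared within scan run 1, the run with arrays of both groups. Within run 1, normal replicate 1 stood at 2.69 and the CIA mean at 2.78. The limma log2 fold change with scan run as a block was 0.092 (SE 0.57, 95% interval -1.15 to 1.33, adjusted p = 0.99), opposite in sign to that of all arrays and near 0. With the block no linear probe passed in limma (0%) and 1 (1.61%) had an unadjusted p under 0.05. The estimate is the CIA mean minus 1 array, so its interval includes a log2 fold change of -1 and cannot be read as equal levels. Taken within run 1 alone, the log2 fold change was also 0.092, since it is the same difference of the CIA mean and normal replicate 1.

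Leaving out normal replicate 1 changed the call. It made the log2 fold change -1.72 (SE 0.35, limma adjusted p = 0.0046), with no overlap between the groups. In that comparison 24 of the 62 linear probes (38.7%) passed. All normal arrays left were from run 2 and all CIA arrays from run 1, so group and scan run cannot be told apart in it. Array weights, lowest for normal replicates 1 and 5 at 0.30 and 0.65, gave a log2 fold change of -1.77 (adjusted p = 0.0036), and 27 probes (43.5%) passed in that limma fit. The lowest weight fell on the only normal array of run 1, so group and scan run were hardly separated there either.

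The size of the Hsp90ab1 difference depended on the scale. Without any scaling between arrays, the log2 processed signal averaged 11.7 ± 0.75 over the normal arrays and 11.2 ± 0.13 over the CIA arrays (SD, n = 5 each), which gave a log2 fold change of -0.53 (SE 0.40, limma adjusted p = 0.28). The two-sided exact permutation p of that difference was 0.19. The log2 of the circRNA 75th percentile was in turn higher in CIA by 0.83 (exact permutation p = 0.016, adjusted p = 0.095 over the 8 measures, which did not pass), and the 2 differences add up to the -1.36 given above. The larger term of the scaled difference was thus the circRNA signal of the array and the smaller one the signal of the Hsp90ab1 spots.

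The other linear probes gave another scale. Their median log2 level averaged -1.89 ± 0.26 over the normal and -2.32 ± 0.32 over the CIA arrays (SD, n = 5 each), and the groups overlapped, with normal replicate 1 at -2.33 and CIA replicate 2 at -1.77. Relative to that median, Hsp90ab1 stood at 5.02, 7.08, 6.17, 6.54 and 5.32 on normal replicates 1 to 5. On CIA replicates 1 to 5 it stood at 5.46, 4.78, 4.90, 5.08 and 5.30. Normal replicates 2, 3 and 4 were above all CIA arrays, and normal replicates 1 and 5 lay among them.

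On this scale the log2 fold change of Hsp90ab1 was -0.92 (SE 0.40, limma adjusted p = 0.11; two-sided exact permutation p = 0.071). The transcript also belonged to a custom set of 12 probes whose identifiers share the ending PI421900130. Against the median of the other 11, a scale added after the data were examined, its log2 fold change was -0.61 (SE 0.43, limma adjusted p = 0.27). Normexp with an offset of 50 gave -1.22 (limma adjusted p = 0.040), which passed the threshold, as 1 of 14 of the 62 linear probes that did (22.6%). Each scaling or background setting gave a lower level in CIA over all 10 arrays without the scan block, and none did with the block or within scan run 1.

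**Figure D2:**
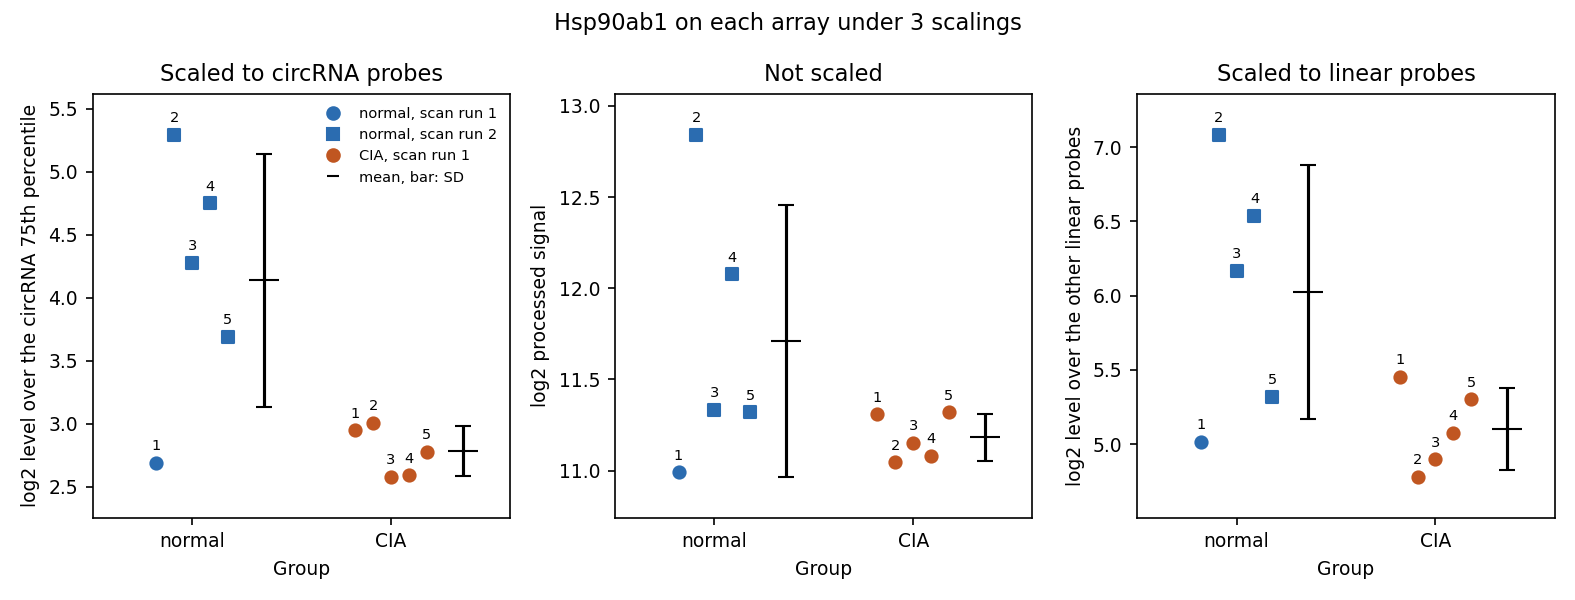
Hsp90ab1 on each array (numbers are replicates; squares mark scan run 2) as log2 level over the circRNA 75th percentile, as log2 processed signal without scaling, and as log2 level over the median of the other linear probes, with the mean and SD of each group of 5. Normal replicate 1 sits beside the CIA arrays in all 3 panels, and the unscaled group means of 11.7 and 11.2 lie closer together than the scaled means of 4.14 and 2.78.

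**Figure D3:**
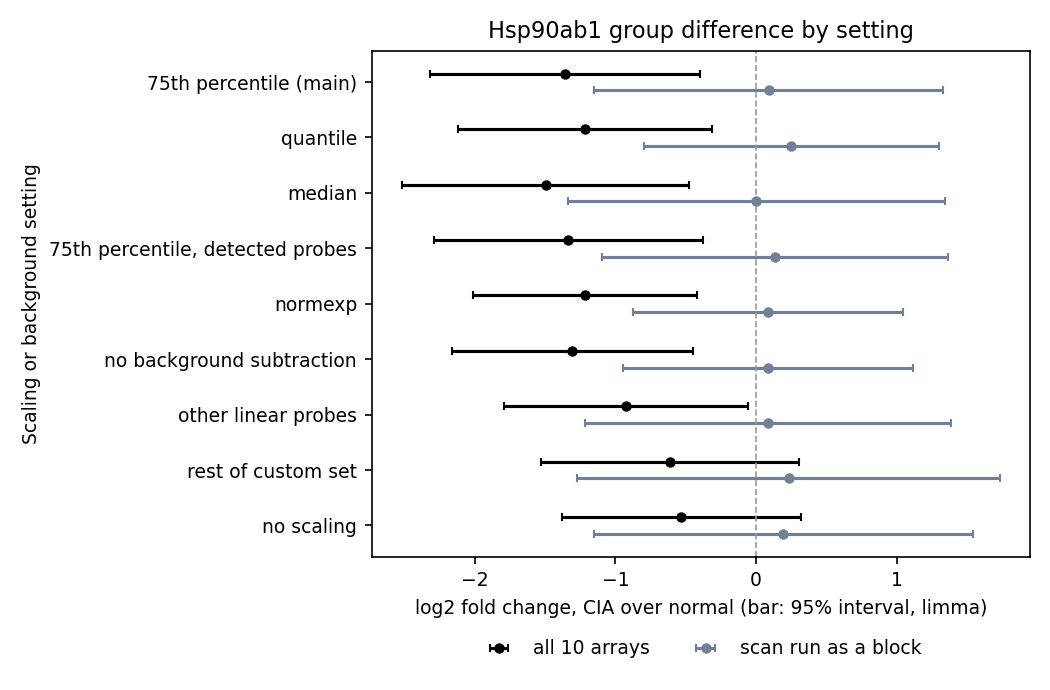
Log2 fold change of Hsp90ab1, CIA over normal, with its 95% limma interval under 9 scaling or background settings, for all 10 arrays (black) and with scan run as a block (grey). Black estimates run from -1.50 to -0.53 and grey ones from 0.0016 to 0.25, with every grey interval spanning 0.

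A rank among the linear probes of the same array needs no scaling between arrays. It orders spot signals and not amounts of RNA, since probes differ in how strongly they hybridise. Hsp90ab1 was the brightest of the 62 linear probes on each of the 4 normal arrays of scan run 2. It had rank 4 on normal replicate 1, and on CIA replicates 1 to 5 it had the ranks 5, 2, 2, 4 and 5. Every array of run 1, whichever its group, thus had at least 1 linear probe brighter than Hsp90ab1.

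The mean rank of Hsp90ab1 was 1.6 ± 1.34 over the normal and 3.6 ± 1.52 over the CIA arrays (SD, n = 5 each). The difference did not pass a two-sided exact permutation test (p = 0.063) and passed without normal replicate 1 (exact p = 0.024). Without that array, group and scan run coincided fully and cannot be told apart. The probe that overtook Hsp90ab1 on all 6 arrays of run 1 was an unnamed transcript. The brighter of 2 probes for Ldha, which encodes lactate dehydrogenase A, had the next highest mean rank among named probes. It was brighter than Hsp90ab1 on 4 of the run 1 arrays, by 0.27 to 1.16 on the log2 scale. The other Ldha probe read below Hsp90ab1 on every array. Pdcd10, a gene of vascular integrity, was brighter than Hsp90ab1 on 2 of the run 1 arrays, by less than 0.1. The brighter Ldha probe had ranks of 2 to 7, with a mean of 4.2 ± 2.17 over the normal and 2.4 ± 0.55 over the CIA arrays (SD, n = 5 each).

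Against circRNA probes, Hsp90ab1 spots were brighter than 97.5% ± 0.75 of the 14145 circRNA probes on the run 2 arrays (SD, n = 4). They were brighter than 93.0% on normal replicate 1 and than 93.8% ± 1.02 on the CIA arrays (SD, n = 5). The number of circRNA probes above Hsp90ab1 was accordingly 215 to 438 on the run 2 arrays and 668 to 1041 on the arrays of run 1. The difference between groups of 5 had a two-sided exact permutation p of 0.040, which did not pass over the 8 measures (adjusted p = 0.095).

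**Figure D4:**
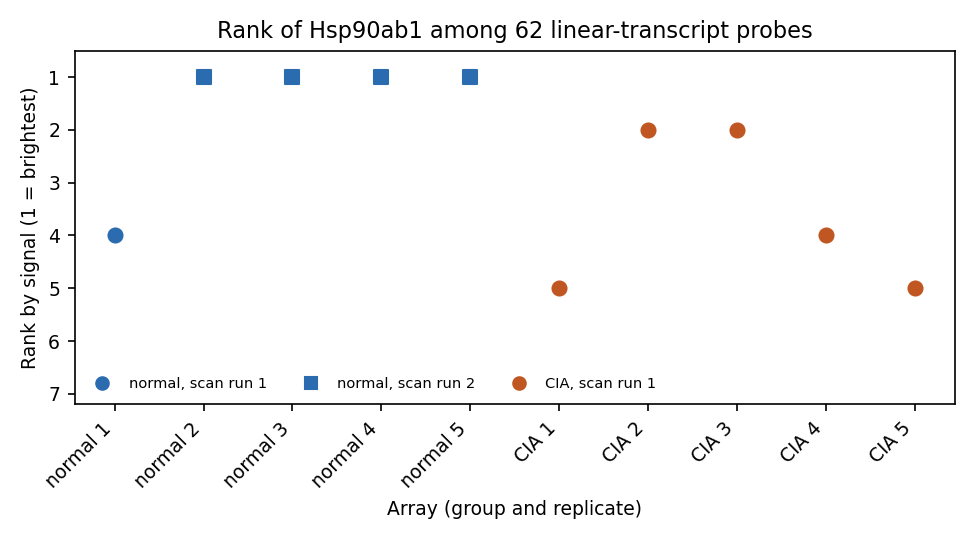
Rank of Hsp90ab1 by signal among the 62 linear-transcript probes of each array (1 is the brightest), by group and scan run. The 4 normal arrays of scan run 2 have rank 1, normal replicate 1 has rank 4 and the CIA arrays have ranks 2 to 5.

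No other chaperone could be set beside it. A list of 31 genes held chaperones, co-chaperones and the heat shock factor Hsf1. It included Hsp90aa1, the endoplasmic reticulum form Hsp90b1 and the co-chaperones Stip1 and Cdc37. Of the 31, Hsp90ab1 was the only one with a named linear probe. Whether the alpha form or the co-chaperones differed in these samples was not tested.

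Reference genes gave the nearest comparison, since Hsp90ab1 is used in the same role. Of 26 such genes, 9 were read by 10 linear probes. Their log2 fold changes had a median of -0.32, against 0.12 over all 62 linear probes, and 1 of the 10, Actb, passed the limma test, lower in CIA. Lower values were given by 5 of the 10 probes, against 27 of all 62 linear probes, of which 2 passed. Both counts moved with the scale. Without scaling 4 of the 10 and 16 of the 62 were lower, after median centring 6 and 33, after quantile normalization 6 and 39, after normexp 7 and 46, and with the scan block 8 and 27.

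The log2 fold change of Actb was -1.86 (SE 0.44, limma adjusted p = 0.037). B2m, the beta-2 microglobulin gene, had -3.23 and Rplp1, a protein of the ribosomal stalk, had -1.76, neither past the limma threshold. The glycolytic kinase gene Pgk1 had -1.23 and the ribosomal protein gene Rpl13a had -0.71. Hprt1, of purine salvage, had 0.14, Sdha, of succinate dehydrogenase, had 0.34 and Gusb, a lysosomal glucuronidase, had 0.56. The Ldha probes had 0.80 and 0.08. The value of Hsp90ab1 thus lay between those of Rplp1 and Pgk1.

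The genes whose levels followed Hsp90ab1 most closely over the 10 arrays were Pop7, Trim2, Rplp1, Actb and Pdk3. Likeness was measured as Pearson's r between log2 levels over the same arrays, which share the scaling and the scan runs, and is given as a description. Pop7, a subunit of the RNase P and MRP ribonucleoproteins, had r = 0.94. Trim2, a ubiquitin ligase, had r = 0.92 and Rplp1 had r = 0.90. Actb had r = 0.88 and Pdk3, which encodes a pyruvate dehydrogenase kinase, had r = 0.85. These genes were high on normal replicates 2 to 4 and low on most of the other arrays.

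The same r was also taken within each scan run, on few arrays, and a difference between runs was not tested. The 5 genes were chosen for a high r over all 10 arrays, which favours lower values within a part of them. Hsp90ab1 levels also spanned only 2.58 to 3.01 within run 1. Within the 6 arrays of scan run 1, r with Hsp90ab1 was 0.56 for Pop7, -0.21 for Trim2, 0.29 for Rplp1, 0.50 for Actb and 0.23 for Pdk3. Within the 4 arrays of run 2 it was 0.86, 0.96, 0.91, 0.23 and 0.99 in the same order. Without scaling between arrays it was 0.72, 0.85, 0.88, 0.66 and 0.57. Over the 61 other linear probes r was above 0.5 on 19 and below -0.5 on 17, with a median of 0.055.

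Pop7 levels on normal replicates 1 to 5 were -0.94, 0.77, 0.59, 0.61 and -0.55, and on CIA replicates 1 to 5 they were -0.75, -0.37, -0.59, -1.15 and -0.95. Trim2 levels covered a wider span, at -3.13, 3.0, 1.18, 2.11 and -1.63 on the normal and -2.99, -1.64, -1.13, -2.15 and -2.98 on the CIA arrays. As with Hsp90ab1, normal replicates 2 to 4 were above all CIA arrays for both genes, and normal replicate 1 lay near or below them.

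**Figure D5:**
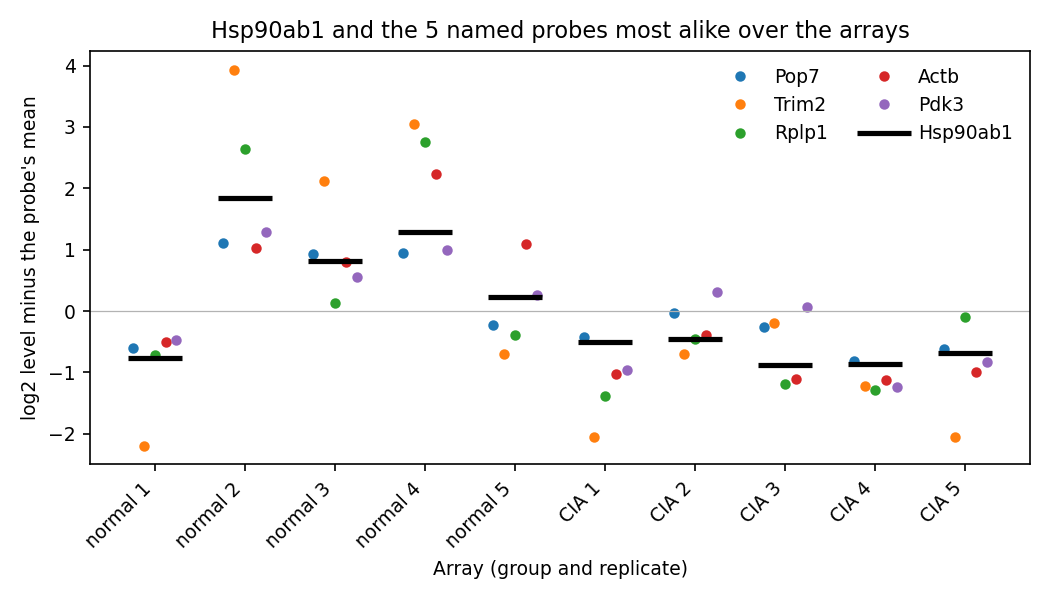
Log2 level of Hsp90ab1 (black bars) and of Pop7, Trim2, Rplp1, Actb and Pdk3 (dots) on each array, each minus its own mean over the 10 arrays. Normal replicates 2 to 4 lie above 0 for all 6 genes, and normal replicate 1 lies below 0 for all 6.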

How the data were processed

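Members, lists and comparisons were chosen with earlier results of these data known. Intensity values were extracted by the authors by Agilent's Feature Extraction software, version 11.0.1.1, from 1-colour scans under its gene expression protocol, per the file headers. The deposited processed signal differs from the background-subtracted signal beside it, and the correction between them is not given in the sources used here. The deposited value table holds no linear-transcript probe and was not used. Limma is also named, with no role given, in the submitters' processing notes.

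Spot signals were averaged on the log2 scale, without outlier spots, and set against the 75th percentile over 14145 circRNA probes. Symbols came from RefSeq (GRCr8) by unversioned accession and matched 39 of 62 linear probes. Coordinates are not given because the array design names another build. Groups were compared with limma 3.58.1 in R 4.3.3 (lmFit, eBayes) and exact permutation tests, with Benjamini-Hochberg adjustment and a two-sided threshold of 0.05. The fit was run on simulated data in which both groups had the spread of the CIA arrays and no scan-run effect was present. That setting differs from these data, so the run checked the code and not the results given here. Scan runs were read from scan times in the headers.

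Named genes were Hsp90ab1, the 5 named probes most correlated with it, its neighbours in mean rank (none above) and measured members of the chaperone and reference lists; Map2 and Pdcd10 were named after their values were seen. Alternatives covered scaling, background correction, spots, filter, variance model, array weights, blocks and leaving out each array. Figures used matplotlib 3.10.9.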

Additional observations from a re-analysis of the deposited data

Results flagged for a closer look

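Within the normal group, replicate 1 stood apart from the others in the rank of Hsp90ab1 among the linear probes, at 4 against 1 on each of the other 4 arrays. It also stood apart in the share of circRNA probes dimmer than Hsp90ab1, at 93.0% against 96.9% to 98.5%. Normal replicate 1 is the only normal array of scan run 1. Actb had a log2 level of 0.32 on CIA replicate 2, apart from the other 4 CIA arrays, which read -0.41 to -0.28. These 3 values came from 42 groups of 5 arrays tested, and chance alone sets apart about 1 group in 20. That rate is for separate groups of values without ties. The other 4 ranks were tied at 1, and the first 2 values both read Hsp90ab1 on the same array, so they are not separate.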

How the results depend on the processing

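Over 26 alternatives the log2 fold change of Hsp90ab1 ran from -1.77 to 0.092 and its limma adjusted p from 0.0036 to 0.99. The log2 fold change was below 0 in 25, none of which adjusted for scan run. Of these 25, 3 passed the threshold: normexp, array weights and leaving out normal replicate 1. The log2 fold change was 0.092 with scan run as a block, -1.22 after normexp and -1.77 with array weights, and -1.72 to -1.07 when 1 array was left out. With the block or within scan run 1, which give the same estimate, the 8 other scalings gave 0.0016 to 0.25. The exact permutation p was 0.071 against the other linear probes, 0.10 against the custom set and 0.19 without scaling. It was 0.0079 to 0.056 with 1 array left out, over 0.05 without CIA replicate 3 or 4. The difference in mean rank was 1.65 to 2.60 places with 1 array left out and passed only without normal replicate 1 (exact p = 0.024), where group and scan run coincided fully.

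The number of linear probes past the limma threshold, 2 in the main comparison, was 5 after quantile normalization, 6 against the other linear probes, 8 against the custom set, 18 without scaling and 14 after normexp. It was 1 with the filter on all 10 arrays, 27 with array weights and 0 to 24 with 1 array left out: 24 without normal replicate 1, 8 without normal replicate 5, 3 without CIA replicate 2, 1 without CIA replicate 3 and 0 without any 1 of the other 6 arrays (10 to 15 at an unadjusted p under 0.05). It was 0 without background subtraction (21 at an unadjusted p under 0.05), 0 in the fit with circRNA probes (4521) and 0 with the scan block (1). The median log2 fold change of the linear probes was 0.12 in the main comparison -0.34 after normexp, -0.29 without background subtraction, -0.15 after quantile normalization, 0.55 against the other linear probes, 0.86 against the custom set and 0.94 without scaling. With the replicate number as a block the count was 5 and Hsp90ab1 kept -1.36 (limma adjusted p = 0.073). Deviations from the group means had correlations of -0.088 to 0.18 between same-numbered arrays. Differently numbered arrays were not compared, so these correlations do not settle whether the numbers pair the samples. The deposited table could not be used as an alternative because it holds no linear probe. Normexp took the median, not the mean, signal of each spot. Signal over background did not limit the reading of Hsp90ab1.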
